A study of Mus musculus with 15 samples.

Results

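The DNA replication machinery was described here through 46 listed genes: the origin recognition complex, the factors that license origins, the replicative helicase and its activators, the polymerases with primase, the clamp loader, the single-strand binding complex, the enzymes that join Okazaki fragments, and the enzymes that supply deoxynucleotides. The genes were taken by symbol from the gene count tables, which hold 21889 genes. Rows were found for 44 of the 46, and all 44 passed the filter on low counts. Mcm4 and Pcna were not analysed here. Counts of the 44 genes ran from 94 to 25229 in a library.

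Poly(A) RNA of mouse cerebellar cells was sequenced in 15 libraries, 3 in each of 5 groups. Granule neuron precursors, the dividing cells that form the granule neurons of the cerebellum, were labelled Math1-GFP at E15.5 and WT at the 3 postnatal ages, P1, P7 and P14. The fifth group, called MB here, was made of medulloblastoma cells of animals labelled Ptch1 heterozygous, for which no age is given. Cells of both kinds were enriched by Percoll fractionation, which sorts on density and not on a marker. The Math1-GFP label and the embryonic age cannot be told apart, nor can the Ptch1 genotype and the tumour. The labels do not say whether replicates came from separate animals, so the p-values measure the spread between these libraries, which may be technical.

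Replication starts in G1, when the origin recognition complex (Orc1 to Orc6), Cdc6 and Cdt1 load the MCM helicase onto DNA. In S phase, Mcm10, Cdc45 and the GINS complex turn the loaded helicase into a moving fork, primase and polymerase alpha start each strand, and polymerases delta and epsilon extend it. In the postnatal cerebellum granule neuron precursors divide in the outer layer under Sonic hedgehog signalling before they leave the cell cycle, and loss of the hedgehog receptor Ptch1 is a known route to medulloblastoma. Many replication genes are known targets of E2F transcription factors, which act at the start of S phase.

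The 15 libraries held 12597472 to 43443132 counts in genes, and no libraries had identical counts. Levels below are CPM (counts scaled to a common library total) after TMM scaling, in the order of replicates 1, 2 and 3 or as mean ± SD with n = 3. Log2 changes are fitted values of edgeR's quasi-likelihood model with their standard errors, and a gene was called at a false discovery rate (FDR, Benjamini-Hochberg over the 15259 genes tested) under 0.05. The median change of all genes tested lay between -0.01 and 0.03 in each of the 6 comparisons. The library labelled P1 replicate 3 stood apart from the other P1 libraries. It held 102 CPM of Gabra6, a receptor subunit of mature granule neurons, against 1.12 and 12.5. On the first principal component all P1 libraries were spread, at 14.5, 51.7 and 68.8 in replicate order. Of them P1 replicate 3 lay nearest to P14 (83.4 to 90.2). Atoh1, the transcription factor that defines granule neuron precursors, was present in every library, but its level differed between groups. It was 124 to 138 CPM at E15.5, 24.5 to 65.4 at P1, 23.6 to 39.1 at P7, 10.9 to 13.1 at P14 and 236 to 322 in MB. The sum over 8 precursor markers, Atoh1 among them, was 2449 to 3409, 3078 to 3723, 4031 to 4411, 3391 to 3707 and 3637 to 6031 CPM in the same order.

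The replication genes had their highest level in the tumour and their lowest at P14. The mean of MB was the highest of the 5 groups for 44 of 44 genes, beside 29.5% of all genes tested, and the mean of P14 was the lowest for 42 of 44, beside 22.6%. Of the exceptions, Orc4 was lowest at P7 and Rfc1 at E15.5. Summed over the 44 genes, the level was 3359, 3172 and 4389 CPM at E15.5, 4761, 4127 and 2959 at P1, 3430, 4052 and 3596 at P7, 2055, 2027 and 2260 at P14, and 7041, 6655 and 5939 in MB. The 3 P14 sums lay below all other libraries and the 3 MB sums above all others, while E15.5, P1 and P7 overlapped.

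Gene by gene, all 3 MB libraries were above all 12 others for 18 of the 44 genes, beside 8.43% of all genes tested. All 3 P14 libraries were below all 12 others for 30 of the 44, beside 6.40%. Among the 4 ages, the highest mean was at P1 for 25 genes, at E15.5 for 14 and at P7 for 5. RNA was measured from many cells at once, so fewer replicating cells and less RNA per cell cannot be told apart.

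**Figure D1:**
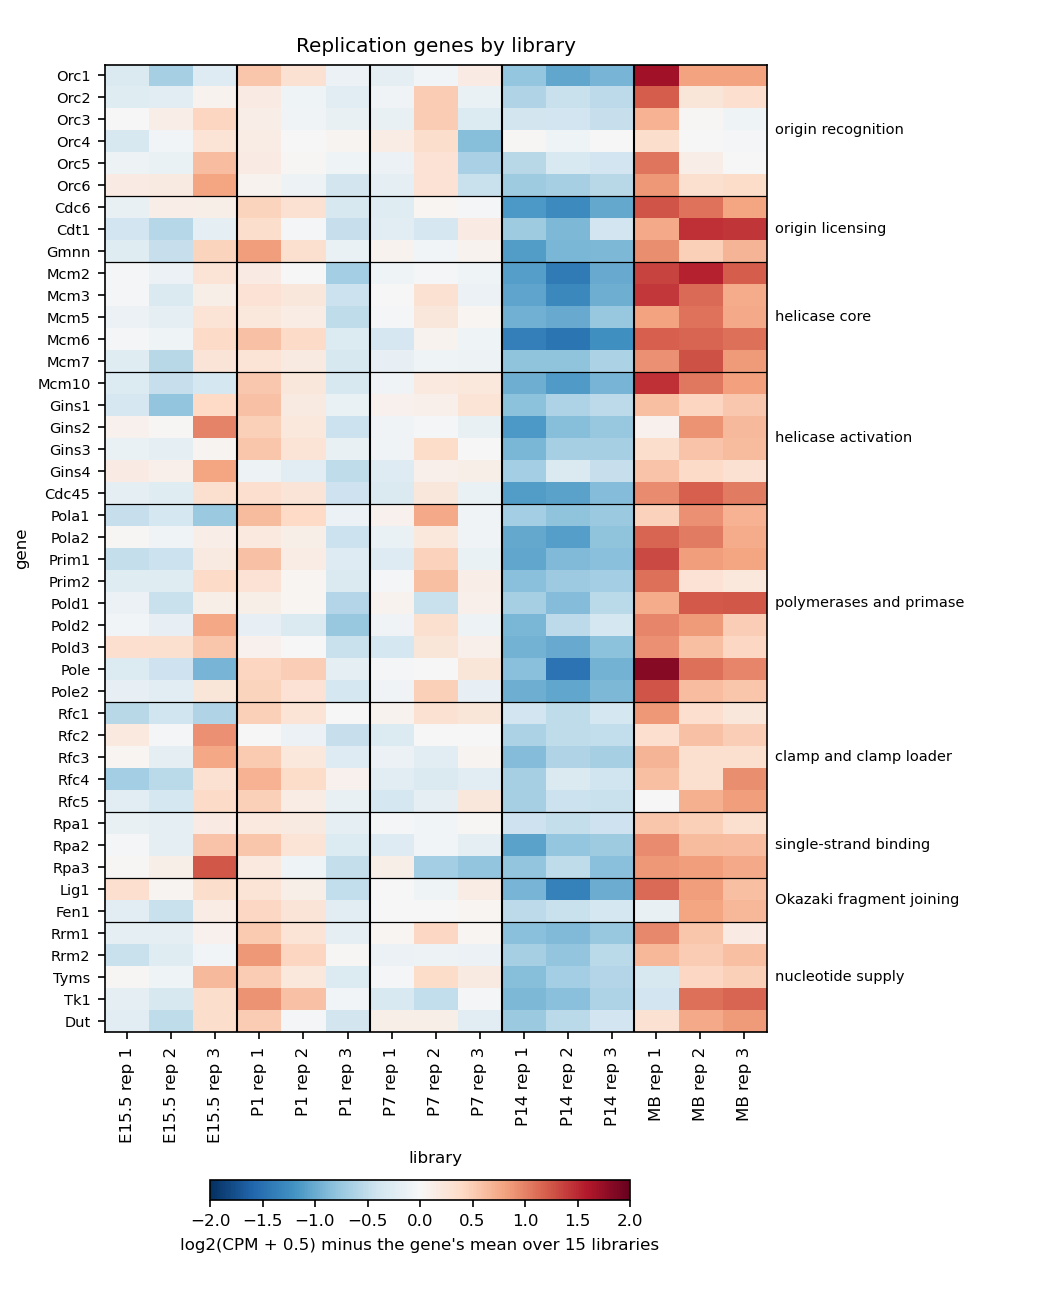
Level of the 44 replication genes (rows, grouped by role) in the 15 libraries (columns), as log2(CPM + 0.5) minus the gene's mean over all libraries; blue is below and red above that mean. The 3 P14 columns are blue and the 3 MB columns red for most rows, and the row of Orc4 is near white in P14.

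To show the DNA next to the start sites of genes that moved together, promoter windows were read from RefSeq (GRCm38.p6, 250 bases before to 50 after the start). A window was found for 37 of the 44 genes. The 4 windows below belong to the genes with the largest changes between MB and P14 among those with a window, on the gene's own strand, with matches to an E2F word in capitals. The words searched on both strands were TTTCCCGC, TTTGGCGC and TTTCGCGC.
Mcm2, chr6:88898731-88899030 (minus strand): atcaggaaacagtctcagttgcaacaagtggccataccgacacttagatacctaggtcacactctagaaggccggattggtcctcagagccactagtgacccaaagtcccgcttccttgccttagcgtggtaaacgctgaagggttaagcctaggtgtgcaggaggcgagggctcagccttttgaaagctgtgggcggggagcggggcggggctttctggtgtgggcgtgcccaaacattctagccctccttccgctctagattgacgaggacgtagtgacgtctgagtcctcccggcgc
Mcm6, chr1:128359656-128359955 (minus strand): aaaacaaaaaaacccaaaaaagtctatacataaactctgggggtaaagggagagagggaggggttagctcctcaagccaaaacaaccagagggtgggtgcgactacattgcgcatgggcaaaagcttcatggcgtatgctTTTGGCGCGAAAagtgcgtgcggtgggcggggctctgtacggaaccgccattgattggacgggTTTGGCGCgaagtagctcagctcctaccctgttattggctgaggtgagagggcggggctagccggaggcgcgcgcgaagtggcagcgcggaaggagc
Cdc6, chr11:98907901-98908200 (plus strand): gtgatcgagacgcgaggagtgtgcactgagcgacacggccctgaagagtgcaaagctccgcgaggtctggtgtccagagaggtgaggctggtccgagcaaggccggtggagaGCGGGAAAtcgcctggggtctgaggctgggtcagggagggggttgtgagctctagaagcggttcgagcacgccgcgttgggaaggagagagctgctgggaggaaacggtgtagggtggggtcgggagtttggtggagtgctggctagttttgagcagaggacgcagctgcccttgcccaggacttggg
Mcm3, chr1:20820263-20820562 (minus strand): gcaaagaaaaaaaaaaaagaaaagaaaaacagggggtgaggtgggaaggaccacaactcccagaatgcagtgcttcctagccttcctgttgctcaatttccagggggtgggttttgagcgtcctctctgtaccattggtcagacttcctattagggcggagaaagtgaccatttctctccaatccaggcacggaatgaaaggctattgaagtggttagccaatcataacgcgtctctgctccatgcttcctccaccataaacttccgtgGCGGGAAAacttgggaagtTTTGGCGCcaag

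Mcm6 held 3 matches, of which 2 overlap, first at 110 bases before the start and again at 47 bases before it. Mcm3 held 2, both after the start, and Cdc6 held 1 at 138 bases before the start. Mcm2, with the largest change of the 4, held none, and no match says only that these letters are not in this window. An E2F word stood in a window of 15 of the 37 genes (40.5%), beside 573 of 27025 genes in the table (2.12%) and 9 of 33 other replication genes (27.3%). The 15 genes were Cdc6, Cdt1, Gins3, Lig1, Mcm3, Mcm5, Mcm6, Mcm7, Orc1, Orc3, Pola1, Pold1, Pold3, Pole2 and Rfc3. CCAAT, searched on both strands, stood in 22 of the 37 (59.5%) beside 41.1% of all genes. The cell-cycle homology word TTTGAA stood in 5 (13.5%) beside 20.2%.

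Genes with and without an E2F word overlapped in their changes. Between P14 and P1, the median log2 change was -1.03 with a word and -0.78 without, and 12 of 15 and 13 of 22 were called. Between MB and P14, the medians were 1.81 and 1.24, with 15 of 15 and 21 of 22 called. Between MB and P7, they were 0.85 and 0.68, with 11 of 15 and 13 of 22 called. The difference between both kinds of gene was not tested, and a match is not a binding site.

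Across the 4 ages as a whole, 35 of the 44 genes differed, beside 55.7% of all genes tested. The 9 that did not pass were Cdt1, Orc2, Orc3, Orc4, Orc5, Rfc5, Pold1, Fen1 and Dut, so 4 of the 6 origin recognition genes were among them. FDR values of these 9 ran from 0.0879 for Pold1 to 0.981 for Orc4. With 1 library left out, the number that passed was lowest, at 26, without P14 replicate 1 and highest, at 37, without P1 replicate 3. Beside these, 48.0% and 54.8% of all genes passed.

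From E15.5 to P1 the replication genes did not move as one. Called higher at P1 were 7 of 44, beside 25.4% of all genes, and called lower were 3 of 44, beside 20.9%, so a smaller share of them changed than of all genes tested. The 7 were Pola1 (log2 change 0.86 ± 0.23 SE), the catalytic subunit of polymerase alpha, Pole (0.79 ± 0.26), that of polymerase epsilon, and Rfc1 (0.78 ± 0.18), the large subunit of the clamp loader, with Rrm2 (0.71), Orc1 (0.69), Rfc4 (0.65) and Mcm10 (0.56). The 3 lower ones were Gins4 (-0.67 ± 0.21), a GINS subunit, Rfc2 (-0.60 ± 0.21) and Pold3 (-0.52 ± 0.19). The median of the 44 was 0.12.

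In E15.5 replicate 3 the level was the highest of its group for 39 of the 44 genes, and in P1 replicate 3 the lowest of its group for 43. With either of these 2 libraries left out, 0 genes were called lower, and without P1 replicate 2, 1 was. In these runs 18.3%, 17.6% and 15.4% of all genes were called lower. Calls higher fell to 4 without E15.5 replicate 1 or 2 and to 3 without P1 replicate 1 or 2. Beside these, 21.7%, 23.8%, 23.3% and 21.2% of all genes were called higher. Rfc1 alone of the 10 called genes held its call in every alternative run: it stood at 105, 118 and 103 CPM at E15.5 and at 216, 188 and 156 at P1, and the groups did not overlap.

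Markers of other cell types also differed between E15.5 and P1. Over 8 astroglial markers the summed level was 126.6 to 372.1 CPM at E15.5 and 2510 to 3899 at P1. Over 8 markers of endothelium and mural cells it was 25.51 to 55.91 and 656.2 to 1062, and over 8 of oligodendrocytes 60.41 to 75.92 and 204 to 3987. The sum over 8 markers of granule neurons went the other way, from 4301 to 6250 CPM at E15.5 to 1766 to 3771 at P1. Not every gene of that list fell. Gabra6 was at 0 in all E15.5 libraries and at 1.12, 12.5 and 102 CPM at P1. Cbln3 was at 2.75, 3.42 and 2.42 CPM at E15.5 and at 5.45, 21.6 and 159 at P1. Over 6 markers of GABAergic interneurons the sum was lower at P1 as well, at 288.4 to 324.5 CPM beside 491.3 to 594 at E15.5. The part of these cells in the changes of the replication genes was not tested.

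Between P1 and P7 no replication gene was called in either direction with edgeR, beside 1.40% of all genes higher and 1.74% lower. DESeq2 called 1 lower, beside 3.26% of all genes. At an unadjusted p under 0.05 in edgeR, 0 were higher, beside 9.16% of all genes, and 3 lower, beside 10.9%. The 3 were Rrm2 (log2 change -0.59 ± 0.19, FDR 0.0913), Rfc4 (-0.66 ± 0.25, FDR 0.167) and Tk1 (-0.81 ± 0.34, FDR 0.203). Estimates lay above 0 for 15 genes and below 0 for 29, with a median of -0.09. Without P1 replicate 3, edgeR called 1 gene lower, beside 2.61% of all genes.

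At P14, 29 and 21 of the replication genes were called lower than at P1 and at P7. Against P1, the 29 of 44 stood beside 5.31% of all genes called lower, and 0 were called higher, beside 3.63%. Every estimate lay below 0, from -1.63 ± 0.22 for Mcm6 (FDR 0.000932) to -0.10 ± 0.27 for Orc4, with a median of -0.91. After Mcm6 came Gmnn, the inhibitor of Cdt1 (-1.41 ± 0.27, FDR 0.00883), and Cdc6 (-1.35 ± 0.21, FDR 0.00247). Against P7, the 21 of 44 stood beside 4.51% of all genes, and 0 were called higher, beside 5.81%. There 23 were not called, and 43 estimates lay below 0 and 1 above it, that of Orc4 (0.0032 ± 0.27). Mcm6 (-1.24 ± 0.21), Mcm3 (-1.18 ± 0.22) and Mcm10 (-1.15 ± 0.21) had the largest changes, and the median was -0.75. The 2 comparisons share the P14 libraries.

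The number of calls at P14 moved with single libraries, and so did that over all genes. Against P1, 4 genes were called without P1 replicate 1, 7 without P1 replicate 2, and 9, 4 and 11 without P14 replicates 1, 2 and 3, while all genes fell from 5.31% lower to between 0.939% and 1.60%. Without P1 replicate 3, 34 genes were called lower, beside 7.96% of all genes. Against P7, 5 were called without P7 replicate 2, and 10, 1 and 10 without P14 replicates 1, 2 and 3. Over all genes, 0.465%, 1.05%, 0.233% and 1.13% were lower in these 4 runs. Cdc6, Mcm10, Mcm6 and Rrm2 held their call against P1 in every alternative, and Mcm6 did so against P7. The median of the 44 changed less, from -1.09 to -0.72 against P1 and from -0.84 to -0.69 against P7 with 1 library left out.

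Other cell types changed with P14 too, and their part in the lower levels was not tested. Over 8 oligodendrocyte markers the summed level was 6424 to 6964 CPM at P14, 812.5 to 1874 at P7 and 204 to 3987 at P1, where the library labelled P1 replicate 3 held the 3987. Over 8 astroglial markers it was 3585 to 4545 at P14, 1949 to 4288 at P7 and 2510 to 3899 at P1. The astroglial sums thus overlapped. None of the markers in either list was at 0 in all libraries of a group. Endothelium and mural markers summed to 1304 to 1429 CPM at P14, 498.1 to 670.2 at P7 and 656.2 to 1062 at P1. Granule neuron markers summed to 4591 to 5308, 4325 to 4467 and 1766 to 3771, though Cntn2 of that list overlapped between P14 and P7. Granule neuron precursor markers summed to 3391 to 3707 at P14, below P7 (4031 to 4411) and overlapping P1 (3078 to 3723). Over 8 markers of cycling cells, such as Mki67 and Cdk1, the sum was 1215 to 1453 CPM at P14, 2708 to 4001 at P7 and 1964 to 3001 at P1, so P14 lay below both.

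**Figure D2:**
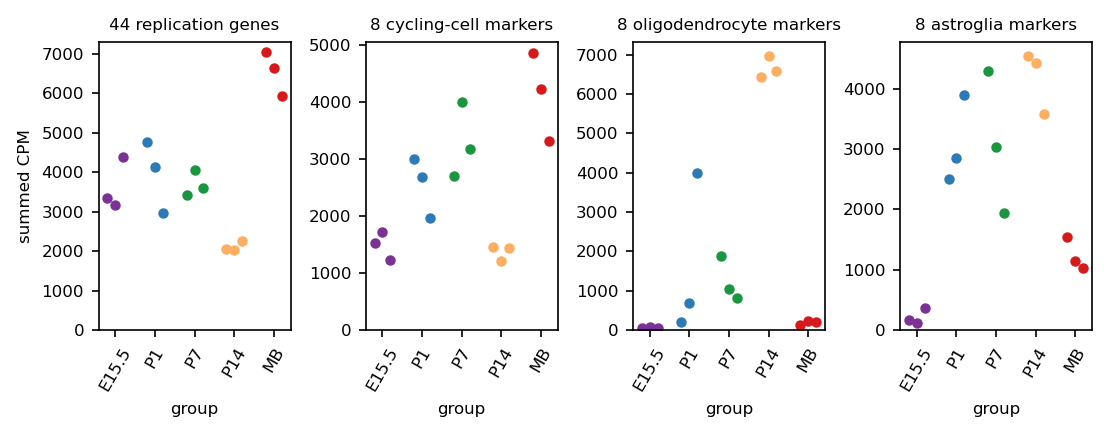
Summed CPM (y axis, linear from 0) of the 44 replication genes, 8 cycling-cell markers, 8 oligodendrocyte markers and 8 astroglia markers in each of the 15 libraries (points), by group. Replication genes lie between 2027 and 2260 at P14 and between 5939 and 7041 in MB, and the P1 point at 3987 in the oligodendrocyte panel is the library labelled P1 replicate 3.

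In the tumour the replication genes were higher than in precursors of P7, the age with which the study compares it. Called higher were 25 of 44, beside 13.7% of all genes, and called lower 0, beside 20.7%. Every estimate lay above 0, with a median of 0.70. Mcm2 (log2 change 1.44 ± 0.21, FDR 7.97e-05), Cdt1 (1.37 ± 0.24, FDR 0.000459) and Pole (1.28 ± 0.26, FDR 0.00136) had the largest changes. The lowest estimate was that of Tyms (0.05 ± 0.26, FDR 0.903). Of the 25 calls, 18 held in every alternative run. Those lost in at least 1 were Orc6, Pold2, Pold3, Pole2, Rfc4, Rpa1 and Tk1. With any 1 of the 6 libraries left out, the number called was 20 to 26, beside 10.9% to 15.6% of all genes.

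Against P14, 43 of 44 genes were called higher in the tumour, beside 22.9% of all genes, and 0 lower, beside 27.2%. The median was 1.499, and Mcm2 (2.54 ± 0.22), Mcm6 (2.501 ± 0.22) and Pole (2.42 ± 0.27) had the largest changes. Orc4 was not called (0.15 ± 0.27, FDR 0.686). Calls of 41 of the 43 held in every alternative. Those of Orc3 (0.66) and Orc5 (0.91) did not: both were lost without MB replicate 1 and without P14 replicate 1, and that of Orc3 also without P14 replicate 2 or 3. The comparison shares MB with that against P7 and P14 with those over age. Markers of cycling cells summed to 3320 to 4863 CPM in MB, which overlaps P7, and oligodendrocyte markers to 126 to 238, below P7 and P14. Granule neuron markers summed to 1231 to 2357 CPM in MB and to 4325 to 4467 at P7, astroglial markers to 1038 to 1544 and 1949 to 4288, those of endothelium and mural cells to 27.81 to 41.87 and 498.1 to 670.2, and 6 Purkinje cell markers to 50.59 to 86.16 and 389.3 to 967.6. All 4 sums were thus lower in every MB library than in every P7 library. Microglial and macrophage markers went the other way, at 143.7 to 420.6 CPM in MB and 43.91 to 138.9 at P7. MB replicate 1 stood apart, with 3637 CPM of granule neuron precursor markers beside 6031 and 5958. Of these markers, Ccnd1 (448 CPM beside 1223 and 1154), Gli1 (208 beside 781 and 651) and Barhl1 (692 beside 1115 and 1149) were low in it. Atoh1 went the other way, at 322 CPM beside 282 and 236. MB replicate 1 also held 420.6 CPM of microglial and macrophage markers beside 172.5 and 143.7. The part of these markers in the higher levels was not tested.

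**Figure D3:**
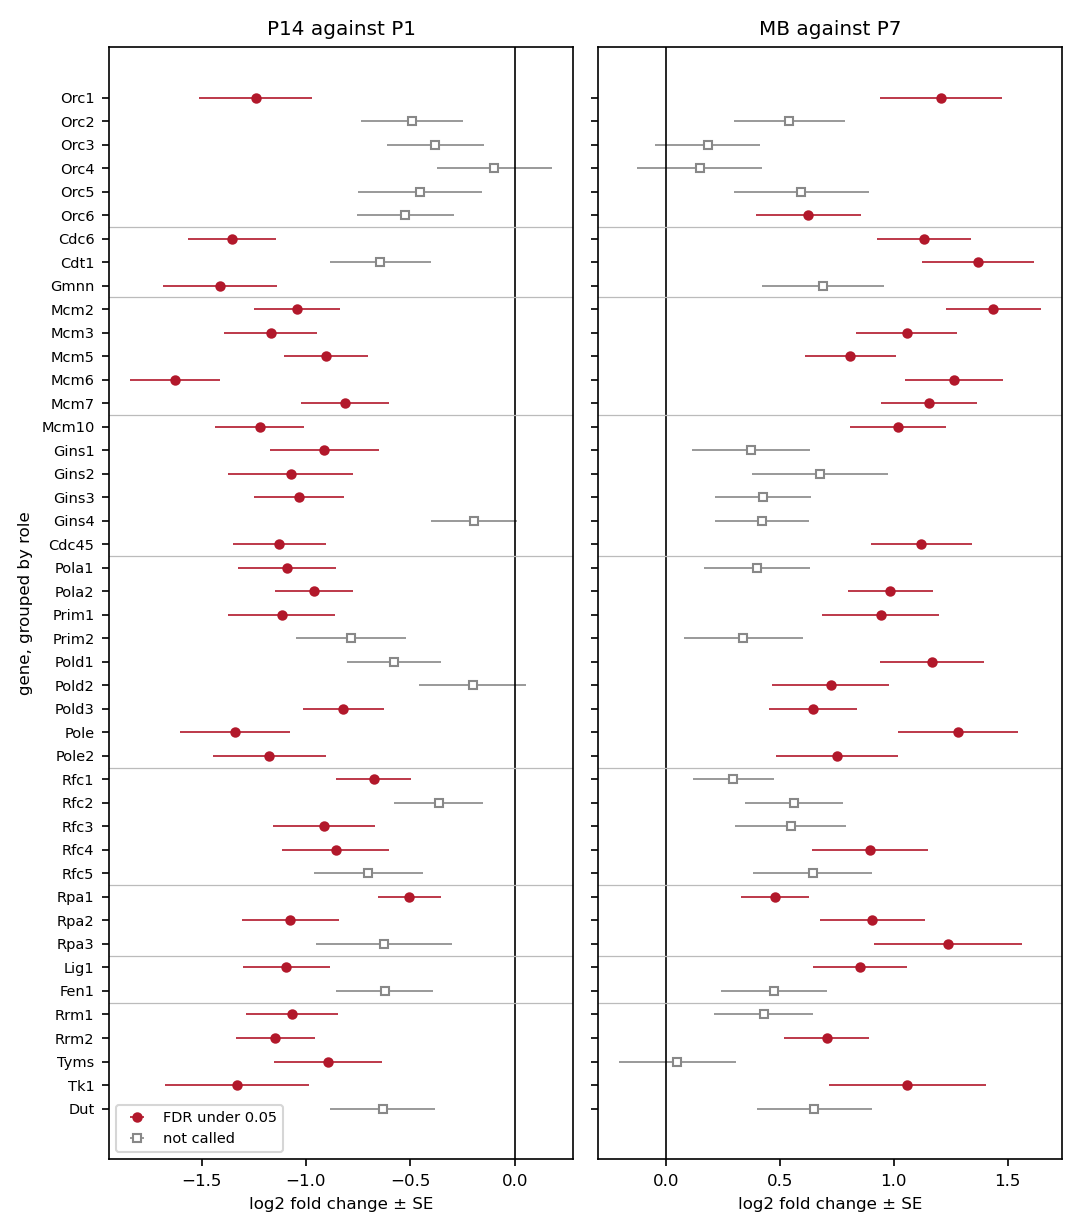
Log2 fold change (x axis) with its standard error for each of the 44 replication genes (y axis, by role), in P14 against P1 (left) and in MB against P7 (right); filled red points were called and open grey squares were not. All points of the first panel lie left of 0 and all of the second right of it, and 29 and 25 are filled.

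The origin recognition complex, which marks origins on chromatin, had the median change nearest to 0 of the roles at P14 against P1 (-0.47). Of its 6 genes Orc1 alone was called lower there, beside 5.31% of all genes. Orc1 stood at 10.3, 7.85 and 10.6 CPM at E15.5, 19.0, 15.9 and 11.7 at P1, 11.02, 12.2 and 14.4 at P7, 7.25, 5.97 and 6.49 at P14, and 41.8, 22.5 and 22.6 in MB. MB lay above every other library and P14 below, and MB replicate 1 was the highest of all. The change at P14 against P1 was -1.24 ± 0.27 (FDR 0.0153), and that of MB against P7 was 1.21 ± 0.27 (FDR 0.00248).

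Orc6, the smallest and most loosely bound subunit, was at 64.1, 64.9 and 99.1 CPM at E15.5, 60.2, 53.7 and 44.2 at P1, 50.01, 70.6 and 42.1 at P7, 35.0, 35.9 and 39.1 at P14, and 105, 71.8 and 74.4 in MB. It was called in MB against P7 (0.63 ± 0.23, FDR 0.0469), a call that held in 6 of 15 alternatives. It was lost without P7 replicate 1, P7 replicate 3, MB replicate 1 or MB replicate 3, and also with no filter on low counts, with a replicate block, in the start-site and transcript tables (FDR 0.0577 in the latter) and with the 2 groups compared alone. Orc2, Orc3, Orc4 and Orc5 were not called in MB against P7, with changes of 0.54, 0.18, 0.15 and 0.60. In Orc2 MB replicate 1 stood above the other MB libraries, at 190 CPM beside 97.2 and 104, and MB overlapped P7. Orc4 was at 12.7 ± 0.523 CPM at P14 and at 14.03 ± 2.18 in MB, and its P7 libraries spread from 6.93 to 16.6.

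Among the 3 licensing genes, Cdc6, the ATPase that helps to load the helicase, was at 28.3, 34.5 and 34.2 CPM at E15.5, 43.0, 39.2 and 25.1 at P1, 26.5, 32.4 and 31.1 at P7, 13.99, 12.7 and 15.3 at P14, and 75.8, 67.3 and 54.6 in MB. E15.5, P1 and P7 overlapped, P14 was below all of them and MB above. In MB against P7 the change was 1.13 ± 0.21 (FDR 0.000564). Cdt1, its partner in loading, was at 46.5, 40.8 and 53.3 CPM at E15.5, 77.0, 59.2 and 43.9 at P1, 52.3, 48.0 and 67.6 at P7, 36.6, 32.2 and 46.3 at P14, and 102, 168 and 164 in MB. At P14 its libraries overlapped those of P1, and it was not called there (-0.65 ± 0.24, FDR 0.101).

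Gmnn, which encodes geminin, was at 17.2, 14.8 and 28.3 CPM at E15.5, 37.1, 25.6 and 18.7 at P1, 21.7, 19.7 and 21.5 at P7, 9.17, 10.6 and 10.8 at P14, and 39.6, 28.8 and 33.0 in MB. In MB all libraries were above P7, yet the change was not called (0.69 ± 0.27, FDR 0.0572). Gmnn passed the test at P14 against P1 and Cdt1 in MB against P7. Whether the 2 genes differed from each other in either comparison was not tested.

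Of the helicase core, all 5 measured Mcm genes were called lower at P14 against P1 (median -1.04, beside 5.31% of all genes called lower), and all 5 higher in MB against P7 (1.15, beside 13.7%) and against P14 (2.24, beside 22.9%). At P14 against P7, 4 of the 5 were called lower, beside 4.51% of all genes, and Mcm7 was not (-0.63 ± 0.21, FDR 0.067). Mcm2 was at 208, 194 and 254 CPM at E15.5, 237, 212 and 132 at P1, 200, 208 and 199 at P7, 98.1, 79.2 and 105 at P14, and 540, 616 and 488 in MB. The 3 P7 libraries were close together, and the P1 libraries were not. Mcm5 was at 187, 179 and 247 CPM at E15.5, 237, 226 and 144 at P1, 201, 239 and 208 at P7, 104, 101 and 120 at P14, and 357, 432 and 346 in MB. In MB against P7 Mcm5 changed by 0.81 ± 0.20 (FDR 0.00526).

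Mcm6 (mm9 chr1:130228168-130256233, minus strand), whose promoter is shown above, was at 260, 253 and 349 CPM at E15.5, 403, 351 and 220.5 at P1, 212, 281 and 251 at P7, 104, 97.0 and 115 at P14, and 611, 600.5 and 574 in MB. Mcm2 lies at chr6:88833469-88848774 on the minus strand in the same build. Mcm3, whose promoter is also shown, was at 141, 119 and 157 CPM at E15.5, 177, 169 and 107 at P1, 143, 179 and 133 at P7, 69.4, 58.8 and 73.0 at P14, and 387, 319 and 241 in MB. In both genes MB was above and P14 below all other libraries. Mcm3 rose by 1.06 ± 0.22 (FDR 0.00156) in MB against P7. For Mcm7 the gene table held 74.7% to 83.6% of the reads that the transcript table gave, and Mcm7 was called in that table as well, at -0.84 in P14 against P1 and 1.16 in MB against P7. From E15.5 to P1 and from P1 to P7 none of the 5 was called.

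Of the 6 genes that activate the helicase, 5 were called lower at P14 against P1, where 5.31% of all genes were, and 1 of the 5 is Gins2, whose counts are uncertain. Against P7, 3 of the 6 were lower at P14, Mcm10, Cdc45 and Gins3, beside 4.51% of all genes. In MB against P7, 2 of the 6 rose, Mcm10 and Cdc45, beside 13.7%. Mcm10, which binds the loaded helicase, was at 45.1, 39.8 and 42.7 CPM at E15.5, 79.7, 64.4 and 43.9 at P1, 52.3, 62.6 and 63.8 at P7, 27.5, 24.6 and 28.5 at P14, and 151, 115 and 96.9 in MB. At P14 against P1 its change was -1.22 ± 0.21 (FDR 0.0052), and in MB against P7 1.02 ± 0.21 (FDR 0.00152). Cdc45, a subunit of the active helicase, was at 41.7, 40.6 and 60.1 CPM at E15.5, 60.9, 57.6 and 35.9 at P1, 39.3, 56.1 and 43.95 at P7, 21.9, 22.7 and 26.0 at P14, and 92.6, 111 and 99.5 in MB. For both genes MB was above and P14 below all other libraries.

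The 4 GINS genes were not called in MB against P7, with changes from 0.37 for Gins1 to 0.68 for Gins2. Gins1 was at 21.7, 15.6 and 36.3 CPM at E15.5, 41.5, 31.3 and 25.1 at P1, 29.3, 29.6 and 33.2 at P7, 15.4, 17.8 and 18.9 at P14, and 42.0, 37.1 and 40.3 in MB. It fell at P14 against P1 (-0.91 ± 0.26, FDR 0.0429), a call that held without P1 replicate 3 and was lost without any 1 of the other 5 libraries. Gins4 was not called there (-0.19 ± 0.21). Gins2 is uncertain: the gene table held 4.79% to 37.0% of the reads that the transcript table gave, and its change at P14 against P1 was -1.07 (FDR 0.0401) in the first and -0.23 (FDR 0.606) in the second.

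Polymerases and primase gave 6 of 9 genes lower at P14 against P1, beside 5.31% of all genes. In MB against P7, 7 of the 9 were higher, beside 13.7%. Pola1 (mm9 chrX:90550106-90877494) was at 40.3, 43.6 and 33.2 CPM at E15.5, 86.8, 74.0 and 51.4 at P1, 59.4, 94.8 and 53.4 at P7, 34.5, 31.8 and 33.1 at P14, and 77.4, 106 and 91.1 in MB. Its E15.5 level overlapped that of P14 and lay below all P1 and P7 libraries, and MB overlapped P7 (0.40 ± 0.23, FDR 0.204). Prim1, the catalytic primase subunit, was at 46.9, 48.4 and 73.7 CPM at E15.5, 97.8, 72.1 and 54.4 at P1, 54.7, 90.3 and 59.3 at P7, 31.7, 35.3 and 36.4 at P14, and 163, 117 and 113 in MB. Prim1 was called in MB against P7 (0.94 ± 0.26, FDR 0.0096) and its partner Prim2 was not (0.34 ± 0.26, FDR 0.349).

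Pole, which copies the leading strand (mm9 chr5:110715325-110766493), was at 75.1, 68.1 and 47.3 CPM at E15.5, 122, 127 and 79.6 at P1, 88.2, 90.1 and 107 at P7, 50.7, 32.3 and 46.9 at P14, and 321, 196 and 179 in MB. MB replicate 1 stood above the other MB libraries, and all 3 were above every other library. The change at P14 against P1 was -1.34 ± 0.26 (FDR 0.00972). Of the delta subunits, Pold1, Pold2 and Pold3 were called in MB against P7 (1.17, 0.72 and 0.65), while at P14 against P1 Pold3 was called (-0.82) and Pold1 (-0.58) and Pold2 (-0.20) were not.

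The 5 clamp loader genes had a median change of -0.70 at P14 against P1 and of 0.56 in MB against P7. Rfc1, Rfc3 and Rfc4 were called lower at P14 against P1 (-0.68, -0.91 and -0.86), beside 5.31% of all genes. Of the 5 genes Rfc4 alone was called higher in MB against P7 (0.90 ± 0.25, FDR 0.0126), beside 13.7% of all genes. Rfc3, a small subunit, was at 56.7, 48.8 and 95.0 CPM at E15.5, 79.6, 63.8 and 46.2 at P1, 50.9, 47.3 and 57.2 at P7, 30.0, 36.1 and 34.6 at P14, and 88.8, 69.4 and 69.0 in MB. In Rfc3 MB was above P7 and overlapped E15.5 and P1. For Rfc4 and Rfc5 the gene table held 64.8% to 87.0% and 47.7% to 80.8% of the reads of the transcript table, so their levels are uncertain, and in that table Rfc4 was not called at P14 against P1 (-0.84, FDR 0.0558).

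Replication protein A coats single-stranded DNA at the fork. Its 3 genes were all called higher in MB against P7, beside 13.7% of all genes. The changes were 0.48 ± 0.15 for Rpa1, 0.91 ± 0.23 for Rpa2 and 1.24 ± 0.33 for Rpa3. Rpa2 was at 56.5, 50.5 and 86.6 CPM at E15.5, 85.4, 70.4 and 48.0 at P1, 48.7, 56.0 and 51.0 at P7, 27.5, 34.0 and 35.2 at P14, and 112, 90.1 and 89.5 in MB. All MB libraries were above all others and all P14 libraries below. At P14 against P1, Rpa1 and Rpa2 were called (-0.51 and -1.07) and Rpa3 was not (-0.63 ± 0.32). The call of Rpa1 there held in 6 of 15 alternatives, and was lost with other size factors, no filter, a replicate block, the start-site table and without any 1 library except P1 replicate 3. At P14 against P7 the changes of Rpa1, Rpa2 and Rpa3 were -0.41, -0.69 and -0.32, and their FDR values of 0.0904, 0.0684 and 0.548 did not pass. The call of Rpa1 in MB was lost without P7 replicate 2 or MB replicate 2.

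Of the enzymes that finish Okazaki fragments, Lig1, the ligase, was at 176, 145 and 178 CPM at E15.5, 169, 152 and 98.6 at P1, 138, 132 and 155 at P7, 72.6, 53.9 and 69.8 at P14, and 306, 248 and 212 in MB. It fell at P14 against P1 (-1.09 ± 0.21, FDR 0.00846) and rose in MB against P7 (0.85 ± 0.21, FDR 0.00468). Fen1, the flap nuclease, was at 59.4, 50.9 and 76.8 CPM at E15.5, 92.7, 83.1 and 59.5 at P1, 69.9, 69.7 and 70.7 at P7, 47.8, 50.7 and 54.2 at P14, and 62.7, 120 and 110 in MB. Its MB replicate 1 was below every P7 library and the other 2 above, and it was called neither at P14 against P1 (-0.62 ± 0.23, FDR 0.0986) nor in MB against P7 (0.47 ± 0.23, FDR 0.13).

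Of the 5 genes of nucleotide supply, Rrm2 and Tk1 were called higher in MB against P7, beside 13.7% of all genes. All 5 estimates lay above 0. Against P14 all 5 were called higher, beside 22.9% of all genes. Rrm2, the small subunit of ribonucleotide reductase, was at 106, 123 and 140 CPM at E15.5, 263, 195 and 147 at P1, 133, 135 and 133 at P7, 90.6, 83.5 and 98.8 at P14, and 229, 206 and 219 in MB. It fell at P14 against P1 (-1.15 ± 0.19, FDR 0.00366), and in MB it was above P7 (0.71 ± 0.19, FDR 0.0083) but did not exceed P1 replicate 1. Dut, which removes dUTP, was at 108, 86.9 and 159 CPM at E15.5, 178, 121 and 96.6 at P1, 134, 134 and 107 at P7, 73.9, 85.9 and 95.5 at P14, and 154, 211 and 226 in MB. Its change was -0.63 ± 0.25 (FDR 0.119) at P14 against P1 and 0.65 ± 0.25 (FDR 0.0561) in MB against P7, and neither was called.

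Tyms and Tk1 make thymidine monophosphate, the first from dUMP and the other by salvage, and in both MB replicate 1 was low, as it was in Fen1. Tyms was at 54.7, 50.7 and 84.9 CPM at E15.5, 76.7, 62.6 and 44.3 at P1, 53.2, 69.6 and 61.5 at P7, 29.6, 33.4 and 35.7 at P14, and 43.0, 72.3 and 75.7 in MB. Tk1 was at 28.4, 25.9 and 41.4 CPM at E15.5, 60.5, 48.9 and 31.1 at P1, 25.9, 22.9 and 31.5 at P7, 17.1, 17.9 and 20.9 at P14, and 24.7, 70.0 and 72.6 in MB. MB replicate 1 lay below all P7 libraries in Tyms and within them in Tk1. The call of Tk1 in MB against P7 (1.06 ± 0.34, FDR 0.0255) was lost without P7 replicate 1 or 2, without MB replicate 2 or 3, with the 2 groups compared alone and inside 1 counting set. The change was 1.41 without MB replicate 1. In MB replicate 1, 44.6% of the records had several alignments and were not counted in a gene, beside 30.7% and 32.0% in the other MB libraries. The part of this in the low values was not tested.

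**Figure D4:**
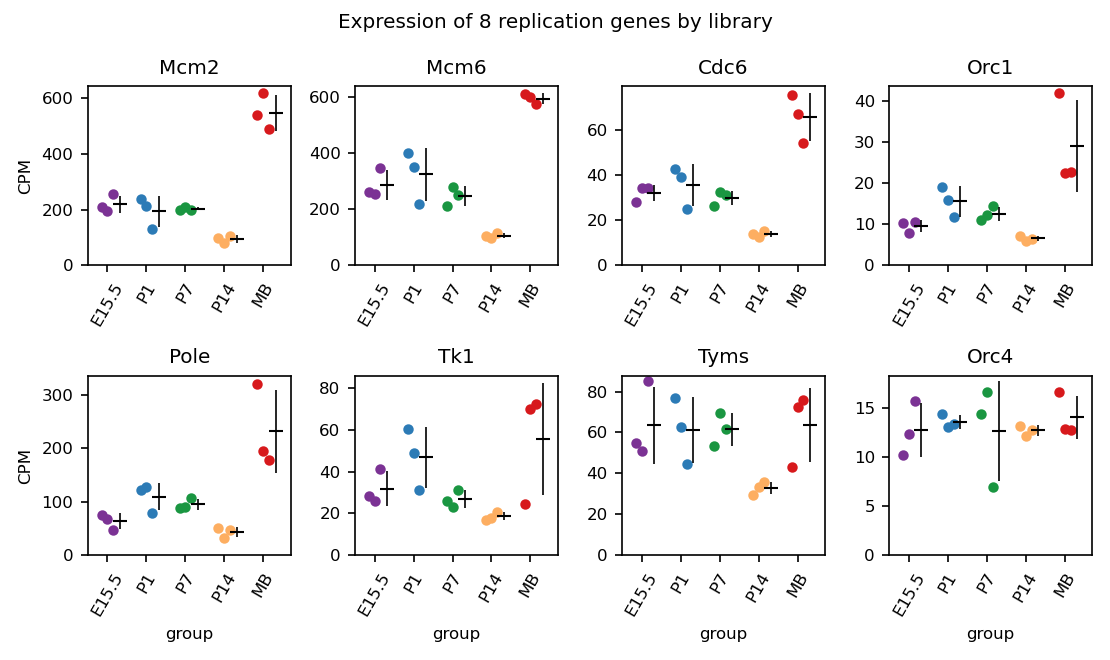
CPM (y axis, linear from 0) of 8 replication genes in each library (coloured points) by group, with the group mean (black dash) and SD (line, n = 3). MB is above all other groups in Mcm2, Mcm6, Cdc6, Orc1 and Pole, 1 of 3 MB points of Tk1 and Tyms is low, and the groups overlap in Orc4.

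Levels could be compared between genes per kilobase of exon for the 43 genes with an mm9 exon length. Mcm6 had the highest level per kilobase at E15.5 (99.1 CPM per kb), P1 (112), P7 (85.4) and MB (205). At P14 it was the fifth, at 36.3 ± 3.08 CPM per kb, and Rrm2 the first, at 41.5 ± 3.50, with Rrm1 at 41.5 ± 1.95 and Rfc2 at 41.5 ± 2.07, 3 values that do not differ beyond their spread. The median of the 43 genes was 28.2, 30.0, 28.7, 17.8 and 47.2 CPM per kb at E15.5, P1, P7, P14 and MB. At the low end, Cdc6 was at 7.01 ± 0.763 CPM per kb at E15.5 and at 14.3 ± 2.31 in MB.

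Of 40 other replication genes (regulators of firing, fork protection, chromatin assembly at the fork, topoisomerases and further nucleotide enzymes), 23 were called lower at P14 against P1, beside 5.31% of all genes, and 0 higher, with a median change of -0.91. Dscc1, of an alternative clamp loader (-1.61 ± 0.31), Hells, a chromatin remodeller (-1.41 ± 0.35), and Exo1, an exonuclease (-1.39 ± 0.21), changed most. Against P7, 21 were lower, beside 4.51% of all genes, and 0 higher, led by Chaf1b of chromatin assembly factor 1 (-1.44), the deoxycytidylate deaminase Dctd (-1.33) and Ticrr, which is needed for origin firing (-1.33). The first count was 3 without P1 replicate 1, 5 without P1 replicate 2, 29 without P1 replicate 3, and 10, 2 and 9 without P14 replicates 1, 2 and 3. The second was 3 without P7 replicate 2, and 9, 1 and 10 without P14 replicates 1, 2 and 3. In the runs against P1, 1.05%, 1.24%, 7.96%, 1.60%, 0.939% and 1.33% of all genes were lower. In those against P7, 0.465%, 1.05%, 0.233% and 1.13% were.

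In MB against P7, 27 of the 40 were higher, beside 13.7% of all genes, and 0 lower. Pole4, a small subunit of polymerase epsilon, was at 30.4, 23.1 and 21.8 CPM at P7 and at 80.9, 87.3 and 98.7 in MB (1.82 ± 0.25, FDR 4.56e-05), followed by Dscc1 (1.18 ± 0.30) and the nuclease Dna2 (1.16 ± 0.21). Against P14, 37 were higher, beside 22.9% of all genes, and 0 lower, led by Dctd (2.38), Hells (2.30) and Dscc1 (2.23). Pold4, Top1 and Rrm2b were not called in either, with Pold4 at -0.45 ± 0.29 against P7 and -0.62 ± 0.29 against P14. From E15.5 to P1, 7 of the 40 rose, beside 25.4% of all genes, with Top2a (1.19), Atad5 (1.09) and Dna2 (1.02) first. Dctd alone fell, beside 20.9% of all genes, from 23.5, 22.8 and 28.2 CPM to 6.65, 7.37 and 3.13 (-2.12 ± 0.36). Without P1 replicate 3, 14 rose, beside 22.5% of all genes, and without P1 replicate 1, 4 did, beside 23.3%. Between P1 and P7, edgeR called none of the 40.

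Some libraries differed in how reads were counted. The gene Tsnax held 0% to 0.273% of its transcript-table reads in the gene tables of the 3 P7 libraries, MB replicate 1 and replicates 1 and 3 of E15.5, and 92.4% to 94.8% in the other 9. The P1 and P14 libraries all belong to the second set, so P14 against P1 lies within it. All 15 libraries were also fitted together with E15.5 and MB split by set, so both sets still gave the spread. In that fit 33 genes were called lower at P14 against P1, beside 9.17% of all genes. MB against P7 within the first set rests on 1 MB library. Of the 25 genes called in the main fit, Tk1 alone changed sign there. MB against P14 within the second set called 41 genes higher, beside 23.0% of all genes. P14 against P7 and P7 against P1 cross the sets, so that age and counting set cannot be told apart in them. Orc1 had no matched transcript and so no ratio. Of the other replication genes, Orc5 alone had gene-to-transcript ratios that did not overlap between the sets, by -0.07 on the log2 scale.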

How the data were processed

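RNA-seq of 15 mouse libraries was analysed. For each library the authors deposited raw counts per gene, per transcription start site model and per transcript, in 3 tables with no normalization. The submitters' processing notes name Trimmomatic, TopHat, StringTie, HTSeq and the mm9 build, with no versions, roles or strand setting. The gene table was used: 39.5% to 55.4% of a library's records were counted in its 21889 genes, and the summary lines, which name no gene, were left out. Symbols were matched for 20358 genes, and exon lengths and positions come from the transcript table (mm9). Without a stated strand setting, overlapping genes cannot be told apart.

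Counts were tested with edgeR 4.0.16 in R 4.3.3 (filterByExpr with a minimum count of 10 and total of 15, TMM, quasi-likelihood F-test, 10 residual degrees of freedom), with 1 mean per group over all 15 libraries. DESeq2 1.42.0, other tables, filters, scalings and left-out libraries were alternatives, and offsets for length and GC content were added after seeing the data. The steps were tested on simulated data. The genes and lists were chosen with earlier results of these data known. Values in every library are given for a fixed selection by role, for members with a printed promoter and for a few further genes. Named without these values are up to 3 called members with the largest changes in each direction per comparison, and members not called where 12 or fewer. Counting depth limits the precision of low genes; intervals cover no other error.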

Additional observations from a re-analysis of the deposited data

How the results depend on the processing

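No called replication gene changed direction under any alternative except Tk1, which in MB against P7 was at -0.12 (FDR 0.786) inside 1 counting set, where MB replicate 1 is the only MB library. The count called higher from E15.5 to P1 (7, beside 25.4% of all genes) was 4 with no filter on low counts, beside 20.2%. It was 3 in the start-site table, which holds 31 of the genes, beside 24.5%, and 11 with length and GC offsets, beside 26.7%. The count called lower there (3, beside 20.9%) was 1 with the groups compared alone, beside 20.2%. Inside 1 counting set, E15.5 replicate 2 alone stood for its age. Fewer replication genes of either list, and fewer of all genes, were called in that fit. In it the 7 higher genes changed by 0.65 to 0.98, and Gins4, Rfc2 and Pold3 by -0.39, -0.15 and -0.43. DESeq2 called 1 gene lower from P1 to P7, where edgeR called 0. At P14 against P7 the count lower (21) was 35 with length and GC offsets and 34 with the groups alone. The share of all genes called lower rose too, from 4.51% to 9.73% and 10.7%. At P14 against P1 the count lower (29) was 19 in the start-site table, beside 4.92% of all genes. The cause was not tested, other than that this table and the counting sets hold fewer genes or libraries.

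Leaving out 1 library gave 3 to 7 higher and 0 to 4 lower at P1 against E15.5, 0 to 1 lower at P7 against P1, 1 to 18 lower at P14 against P7, 4 to 34 lower at P14 against P1, 20 to 26 higher in MB against P7, 41 to 43 higher in MB against P14, and 26 to 37 among the 4 ages. For the 40 other replication genes it gave 4 to 14 higher at P1 against E15.5, 1 to 18 lower at P14 against P7, 2 to 29 lower at P14 against P1, and 18 to 29 higher and 0 to 1 lower in MB against P7. Over all genes, these runs gave 20.8% to 23.8% higher and 15.4% to 20.7% lower at P1 against E15.5. They gave 0.0517% to 2.61% lower at P7 against P1. At P14, 0.233% to 3.68% were lower against P7 and 0.939% to 7.96% against P1. In MB, 10.9% to 15.6% were higher and 17.5% to 22.1% lower against P7, and 17.8% to 22.5% higher against P14. Among the 4 ages 46.9% to 55.0% were called. A group left with 1 or 2 libraries is assumed to vary like the others. The number of records behind a library limits low genes such as Orc1 and Orc4 most.

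The replicate numbers did not pair the samples: in no comparison did every same-numbered pair correlate above 0.1 in its deviations from the group means (lowest -0.24, highest 0.33). With a replicate block, 6 genes were called higher and 1 lower at P1 against E15.5, 19 lower at P14 against P7, 26 lower at P14 against P1, 22 higher in MB against P7, 43 higher in MB against P14 and 33 among the 4 ages. With the block, 24.5% of all genes were called higher and 19.7% lower at P1 against E15.5. At P14, 3.43% were lower against P7 and 4.59% against P1. In MB, 12.1% were higher against P7 and 21.2% against P14, and 52.5% were called among the 4 ages. P7 against P1 and P14 against P7 could not be fitted inside 1 counting set, since each set holds 1 of the ages only.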

Other observations

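Across genes, which are not independent replicates, the change of a replication gene went with its exon length in some comparisons. At P14 against P7, Spearman's rho between log2 change and exon length was -0.46 over 43 replication genes and -0.11 over 14494 genes. In MB against P14 it was 0.33 and -0.00. With GC content it was 0.45 over the replication genes and -0.08 over all genes in MB against P7. The genes share libraries and depth, and no cause was tested.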
